A study of Homo sapiens with 6 samples.

Results

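The genes described here are those of respiratory complex I, the NADH:ubiquinone oxidoreductase of the inner mitochondrial membrane. They were taken by name: protein-coding genes whose symbols start with *NDUFA*, *NDUFB*, *NDUFC*, *NDUFS* or *NDUFV*, together with the ND genes of the mitochondrial genome. The rule found 55 genes among the 62710 analysed, 48 of them nuclear and 7 mitochondrial. The nuclear genes were 37 subunits, the 8 assembly factors *NDUFAF1* to *NDUFAF8*, *NDUFA4* and *NDUFA4L2*, and the read-through gene *NDUFC2-KCTD14*. No measured value entered the choice by name.

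RNA-seq was compared between parental H526 cells, a human small cell lung cancer line, and H526 cells made resistant to onvansertib, an inhibitor of the mitotic kinase PLK1. The resistant cells had been taken through rising onvansertib concentrations, from 10 nM to 75 nM, for more than a year. Whether the drug was present at harvest is not stated in the paper's methods. The parental cells are the line the resistant cells came from. Total RNA was harvested at 3 separate times from each, which gave parental libraries 1, 2 and 3 and resistant libraries 7, 8 and 9. The resistant cells are 1 line derived in 1 selection, so the p-values measure the spread between harvests of these cultures, and long selection and the drug itself cannot be told apart. The line was checked against its markers. *POU2F3*, the master regulator of the tuft-like type of this cancer, was 25809 ± 1178 in parental and 27273 ± 535 in resistant libraries (mean ± SD, n = 3), and was not called. The neuroendocrine genes *INSM1*, *CHGA*, *SYP* and *NCAM1* were called lower in resistant cells. Of the other tuft-like genes *TRPM5* (1.77 on the log2 scale), *CHAT* (1.72) and *SOX9* (0.34) were higher and *AVIL* (-0.80) and *ASCL2* (-0.47) lower, and *YAP1* (1.17) was higher. The T-cell gene *CD3E* was at 0 and the leukocyte gene *PTPRC* was at or under the value of 3 reads in every library. Summed values of 4 fibroblast genes ranged from 68.8 to 98.6 in parental and from 244 to 324 in resistant libraries, carried by *COL1A1*, while the fibroblast gene *DCN* averaged 0.338 and 1.04 and *COL3A1* (-0.73) was not called. *NEUROD1*, *LYZ*, *PDGFRB* and *PECAM1* had means under 10 and were not tested. The endothelial gene *CDH5* was at 0 in all libraries, and the summed values of 3 endothelial genes, carried by *VWF*, ranged from 244 to 339 in parental and from 452 to 491 in resistant libraries. The part of these shifts in the results below was not tested.

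Values are the authors' DESeq2-normalized values, a signal per gene and library in units close to reads. The estimated depth, from the value of 1 read, was 22302356 to 28476925 reads per library, and 3 reads were worth 2.67 to 3.23 units. Fold changes are on the log2(value + 1) scale, resistant minus parental, with the standard error (SE) of the limma fit across all 16347 genes with a mean of at least 10. A gene was called at a Benjamini-Hochberg adjusted p under 0.05 over all tested genes. With 3 libraries against 3, 0.1 is the lowest p an exact permutation of 1 gene's values can reach, and its value whenever the groups do not overlap. In bulk RNA, fewer cells that make a message and less message per cell cannot be told apart.

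Complex I is the largest enzyme of the respiratory chain. It passes electrons from NADH through a flavin and a chain of iron-sulphur clusters to ubiquinone, and couples this to the pumping of protons. The N module, which oxidises NADH, and the Q module, which reduces ubiquinone, form the arm that reaches into the matrix, and the membrane arm with its proximal and distal parts does the pumping. The catalytic core is shared with bacteria. Its matrix part is encoded in the nucleus and its membrane part, the ND subunits, in the mitochondrial genome, so the complex needs messages from both genomes. The accessory subunits surround the core, and assembly factors join the modules and leave.

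The mitochondrial messages are cut from long transcripts of each strand, mostly at the transfer RNAs that lie between genes. Both stretches below are shown because *MT-ND1*, the ND gene with the largest difference, begins in the first, while *MT-ND4L* and *MT-ND4*, whose ratio differed by less than the spread, meet in the second. They are printed 5′ to 3′ on the plus strand of the GRCh38 genome, as the message reads. The first, chrM:3215-3327, holds the end of *MT-RNR2*, the transfer RNA gene *MT-TL1* in capitals (75 bases) and the start of *MT-ND1*. The second, chrM:10740-10786, holds the 7 bases, in capitals, that *MT-ND4L* and *MT-ND4* share on 1 bicistronic message.
MT-RNR2 to MT-ND1: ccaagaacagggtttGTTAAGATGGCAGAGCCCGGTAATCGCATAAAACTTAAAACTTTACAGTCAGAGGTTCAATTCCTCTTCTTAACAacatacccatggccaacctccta
MT-ND4L to MT-ND4: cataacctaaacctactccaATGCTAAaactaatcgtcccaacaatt

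*MT-ND1* (chrM:3307-4262), the ND subunit at the joint of the matrix and membrane arms, was 18818, 30381 and 30765 in parental libraries 1, 2 and 3 and 15753, 9510 and 18363 in resistant libraries 7, 8 and 9. Every resistant library lay below every parental one, by little between parental library 1 and resistant library 9. The log2 fold change was -0.89 (SE 0.24, limma adjusted p = 0.0142), which left 54.6% of the parental mean. It was the only 1 of the 7 ND genes to be called, lower, where 19.8% of all tested genes were called lower, 17.8% higher and 37.7% in either direction. The call was lost without parental library 3, which gave -0.77.

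*MT-ND2*, a proton-pumping subunit of the membrane arm, was 20324, 30636 and 30966 in parental and 20403, 13389 and 26038 in resistant libraries, a log2 fold change of -0.48 (SE 0.22, limma adjusted p = 0.116). *MT-ND6*, the only message of the other strand, was 7155, 12346 and 14046 in parental and 8430, 6471 and 9957 in resistant libraries, -0.40 (SE 0.23, limma adjusted p = 0.193). In both genes parental library 1 lay among the resistant libraries. Without it *MT-ND2* was called at -0.68 and *MT-ND6* at -0.69, and without resistant library 9 *MT-ND2* was called at -0.70.

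*MT-ND3*, a small subunit near the ubiquinone site, was 6682, 8563 and 8560 in parental and 6962, 5198 and 7561 in resistant libraries, -0.28 on the log2 scale (SE 0.14, limma adjusted p = 0.137). *MT-ND4*, a proton-pumping subunit of the distal arm, was 42746, 74609 and 80250 against 60306, 39462 and 67460, -0.22 (SE 0.24, limma adjusted p = 0.494). *MT-ND4L*, which shares its message, was 2546, 3966 and 4672 against 3517, 2012 and 4248, -0.22 (SE 0.27, limma adjusted p = 0.559). In each of the 3 genes resistant library 8 was the lowest and parental library 1 the next.

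*MT-ND5*, the most distal proton-pumping subunit, was 26951, 45749 and 49038 in parental and 41049, 27422 and 44724 in resistant libraries, -0.09 (SE 0.23, limma adjusted p = 0.791). All 7 ND fold changes were negative, with a median of -0.28, where the median of all tested genes was -0.00. The ND median was -0.51 without parental library 1, -0.44 without resistant library 9 and -0.12 without resistant library 8, and in the last of these *MT-ND4* (0.01), *MT-ND4L* (0.10) and *MT-ND5* (0.13) lay above 0. *MT-ND5* was also above 0 without parental library 2 (0.02) or 3 (0.07). None of the 6 other mitochondrial messages was called, and their fold changes ran from -0.57 for *MT-ATP8* to -0.10 for *MT-ATP6*, both subunits of ATP synthase. Between them lay *MT-CYB* of complex III at -0.33, and *MT-CO1*, *MT-CO3* and *MT-CO2* of complex IV at -0.17, -0.16 and -0.14.

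Libraries 1 and 8 stood apart in each group. The 13 mitochondrial messages made up 1.46, 2.55 and 2.63% of all values in parental and 2.09, 1.38 and 2.45% in resistant libraries, so that the spread within either group was wider than the distance between the means of 2.21 and 1.97%. Without parental library 1 and resistant library 8, a choice made after seeing the data, 5 of the 7 ND genes were called lower, where 14.9% of all genes tested in those 4 libraries were called lower. These were *MT-ND1* (-0.85, limma adjusted p = 0.000462), *MT-ND6* (-0.52, 0.00704), *MT-ND2* (-0.42, 0.0235), *MT-ND4* (-0.28, 0.0237) and *MT-ND3* (-0.24, 0.0313). *MT-ND5* (-0.14, 0.139) and *MT-ND4L* (-0.16, 0.347) were not called in those 4 libraries. In the same fit *MT-ATP8* (-0.64, limma adjusted p = 0.0390) and *MT-RNR2* (-0.84, 0.0015) were also called lower. *MT-ATP6*, *MT-CO1*, *MT-CO2*, *MT-CO3*, *MT-CYB* and *MT-RNR1* were not called. The libraries left out held the lowest mitochondrial share of each group, so the choice itself narrowed the spread of these genes. The limma p-values of this fit therefore add no support.

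**Figure D1:**
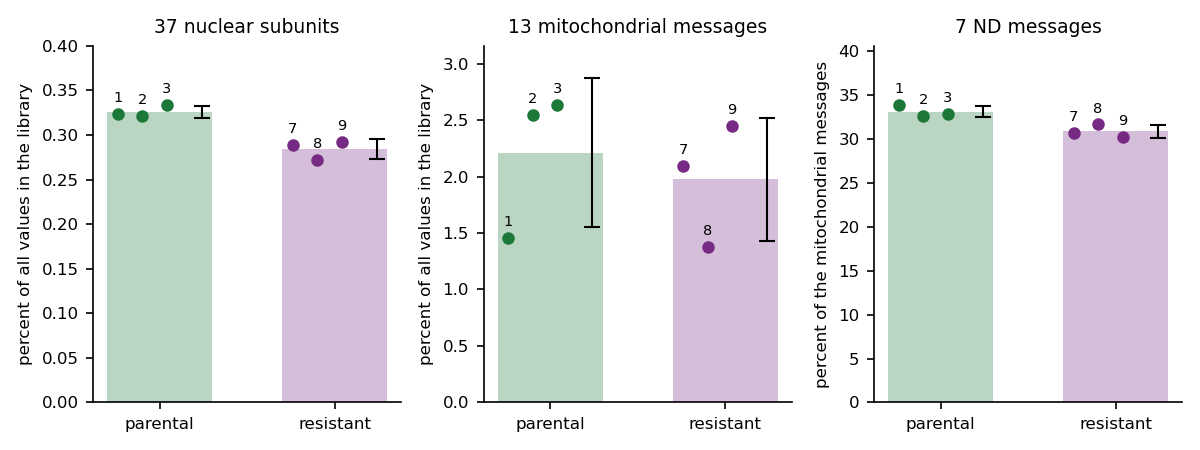
Shares per library for parental (green) and resistant (purple) cells, with the number of the library above each point, bars for the mean of 3 libraries and black whiskers for the SD. From left to right: the 37 nuclear subunits as a percent of all values, the 13 mitochondrial messages as a percent of all values, and the 7 ND messages as a percent of the mitochondrial messages. The mitochondrial share was low in libraries 1 and 8, and the groups did not overlap in the left and right panels.

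The size of the mitochondrial pool drops out when each message is set against the other 12 of its own library. On this scale *MT-ND1* made up 5.09, 4.81 and 4.64% of the messages in parental and 3.09, 2.91 and 3.12% in resistant libraries. The groups lay far apart, at 4.84 ± 0.23% and 3.04 ± 0.11% (SD, n = 3). Its log2 ratio to the other messages fell by 0.70 (SE 0.06, limma adjusted p = 1.35e-05), to 61.6% of the parental ratio. The ratio of *MT-ND1* to *MT-CO1*, the most abundant message, was 0.157 ± 0.011 in parental and 0.0948 ± 0.0034 in resistant cells.

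*MT-ND2* made up 5.50, 4.85 and 4.67% in parental and 4.01, 4.10 and 4.42% in resistant libraries, -0.27 (SE 0.07, limma adjusted p = 0.0148), again with no overlap. *MT-ND5* lay the other way, at 7.29, 7.24 and 7.39% against 8.06, 8.39 and 7.59%, with a log2 ratio higher by 0.14 (SE 0.06, limma adjusted p = 0.0687), which was not called. The remaining ND messages overlapped between the groups: *MT-ND3* at -0.06, *MT-ND4* at -0.00, *MT-ND4L* at 0.00 and *MT-ND6* at -0.18 (limma adjusted p from 0.0913 to 0.973). The 7 ND messages together made up 33.1 ± 0.67% of the messages in parental and 30.9 ± 0.71% in resistant cells. *MT-ND1* and *MT-ND2* were the only ones of the 13 messages called on this scale.

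Next to *MT-ND1*, the ribosomal RNA *MT-RNR2* stood to the summed messages as 5.98, 6.77 and 5.66% in parental and 3.95, 4.39 and 4.21% in resistant libraries, -0.55 on the log2 scale with no overlap. The other ribosomal RNA, *MT-RNR1*, lies upstream of it on the same transcript and differed by 0.01, with overlap. As deposited, *MT-RNR2* was called lower (-0.77, SE 0.24, limma adjusted p = 0.0281) and *MT-RNR1* was not (-0.21, SE 0.21, limma adjusted p = 0.467). The 3 neighbouring genes *MT-RNR2*, *MT-ND1* and *MT-ND2* were thus the ones with the lower ratios, with *MT-ATP8* (-0.35, limma adjusted p = 0.0762) the only other message whose groups did not overlap in that direction. *MT-CO1* at 0.07 did not overlap on the higher side.

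A ratio within a pool shows unequal change only. With *MT-ND1* and *MT-ND2* left out of the reference, *MT-ND1* stood at -0.71, *MT-ND2* at -0.30 and *MT-ND5* at 0.10, each still without overlap, *MT-CO1* overlapped at 0.01, and *MT-ND6* no longer overlapped at -0.22. Across the junction printed above, the ratio of *MT-ND4L* to *MT-ND4* was 0.0570 ± 0.0034 in parental and 0.0574 ± 0.0060 in resistant cells. The ratio of *MT-ND6* to *MT-ND5*, which face each other on opposite strands, was 0.265, 0.270 and 0.286 against 0.205, 0.236 and 0.223. How the counting treated strand is not given in the sources used here, so reads of *MT-ND6* cannot be told apart from antisense reads. The nuclear copies of the ND genes listed as pseudogenes carried at most 0.0827% of the value of their mitochondrial gene.

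**Figure D2:**
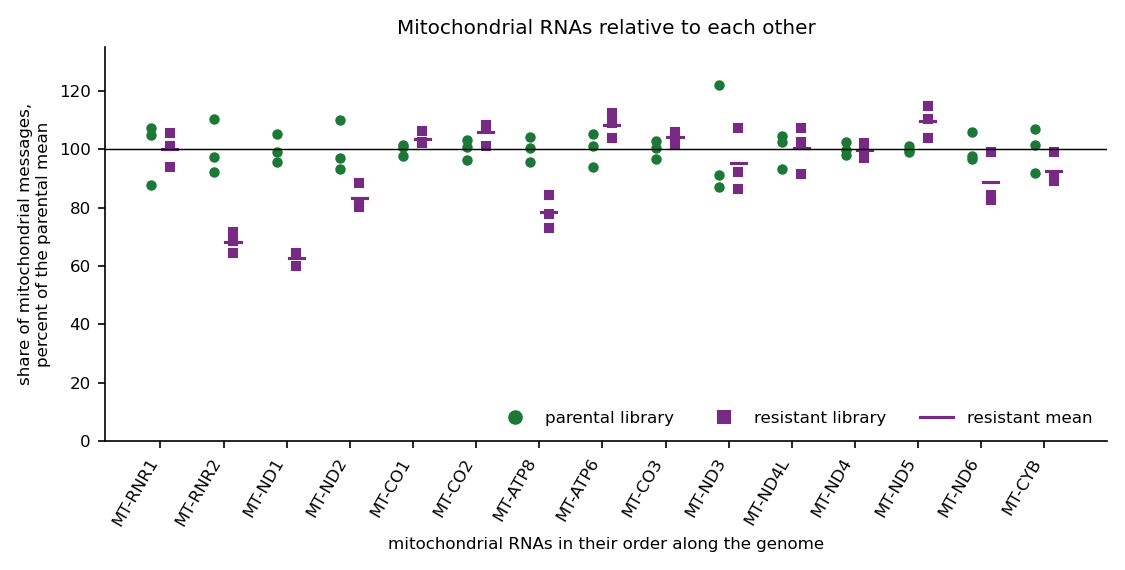
Each mitochondrial RNA as a share of the summed 13 messages of its library, in percent of the parental mean, with the genes in their order along the genome. Circles are parental libraries, squares resistant libraries and short lines the resistant mean. The resistant libraries lie below the parental ones for *MT-RNR2*, *MT-ND1*, *MT-ND2* and *MT-ATP8*, and above them for *MT-CO1* and *MT-ND5*. For *MT-RNR1* the groups overlap.

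Of the 37 nuclear subunits, 22 were called lower and 1 higher, against a background of 19.8% of all tested genes lower and 17.8% higher. The median log2 fold change was -0.25, 31 fold changes were negative, and 26 subunits did not overlap between the groups, against 49.9% of all tested genes. All called members were without overlap. Without parental library 1 and resistant library 8, 17 subunits were called lower and 1 higher, where 12.6% of all genes were called higher in those libraries. The differences were small: 20 of the 26 nuclear members called lower lay above -0.5. Together the 37 subunits made up 0.323, 0.321 and 0.334% of all values in parental and 0.288, 0.271 and 0.293% in resistant libraries. Their summed values fell to 83.3% of the parental mean, from 81936 ± 2139 to 68261 ± 3481 (SD, n = 3).

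Short transcripts were lower in resistant cells in general. Among the other nuclear protein-coding genes with a canonical transcript of up to 1000 nucleotides, 38.6% were called lower, against 18.2% of those over 4000, and the medians were -0.19 and 0.03. Restricted to other genes with a mean between 500 and 6000, where most subunits lie, the share called lower was 53.7% of 324 short genes. Of the 30 nuclear members with transcripts up to 1000 nucleotides 20 were called lower, of the 6 up to 2000 it was 3, of the 4 up to 4000 it was 2, and of the 7 longer ones it was 1. Most members are short, and for these the distance to the background was smaller against short genes of similar level (20 of 30 against 53.7%) than against all tested genes. The part of transcript length in the members' differences was not tested.

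**Figure D3:**
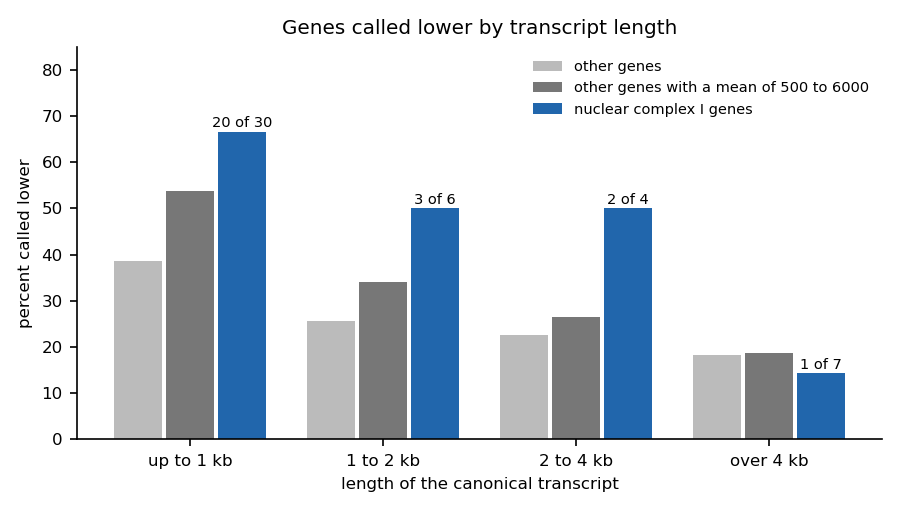
Percent of genes called lower in resistant cells by length of the canonical transcript, for all other nuclear protein-coding genes (light grey), those with a mean between 500 and 6000 (dark grey) and nuclear complex I genes (blue, with counts). In all 3 sets the share is lowest in the longest class, and 20 of the 30 short complex I genes stand beside 53.7% of short genes of similar level.

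**Figure D4:**
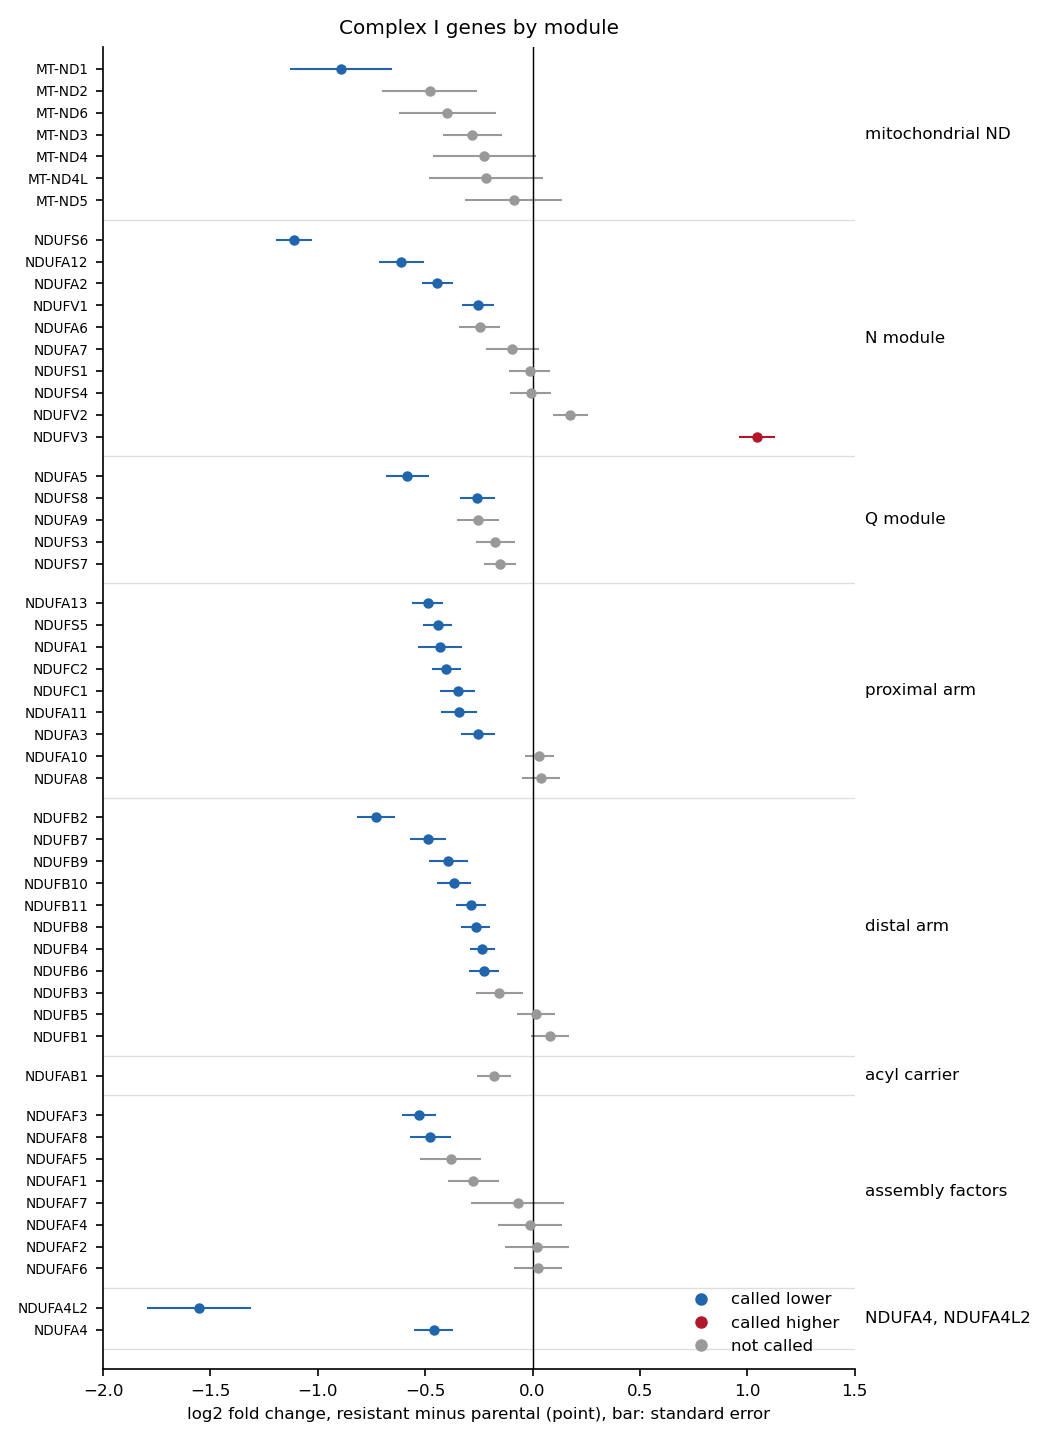
Log2 fold change, resistant minus parental, of complex I genes, ordered within each module, with the limma standard error as a bar. Blue genes were called lower, red higher and grey were not called. The proximal and distal membrane arms hold most of the nuclear subunits, with 15 of those called lower, and *NDUFV3* is the one called higher.

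Stretches of neighbouring genes shared a direction in these cells (the 51 genes around *NDUFV3* had a median of 1.18), so each nuclear member was set against the median fold change of its 51 neighbouring genes. After this centring, 16.4% of all genes were lower and 14.5% higher, and 18 of the 37 nuclear subunits were lower and 0 higher, with a median of -0.20 and 34 negative. Of the 26 nuclear members called lower, 20 were lower on both scales. The 6 that were not were *NDUFA12*, *NDUFA2*, *NDUFA3*, *NDUFA5*, *NDUFB10* and *NDUFV1*, and *NDUFA9*, *NDUFAF1* and *NDUFB1* were lower after centring only. Copy number itself was not measured here.

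**Figure D5:**
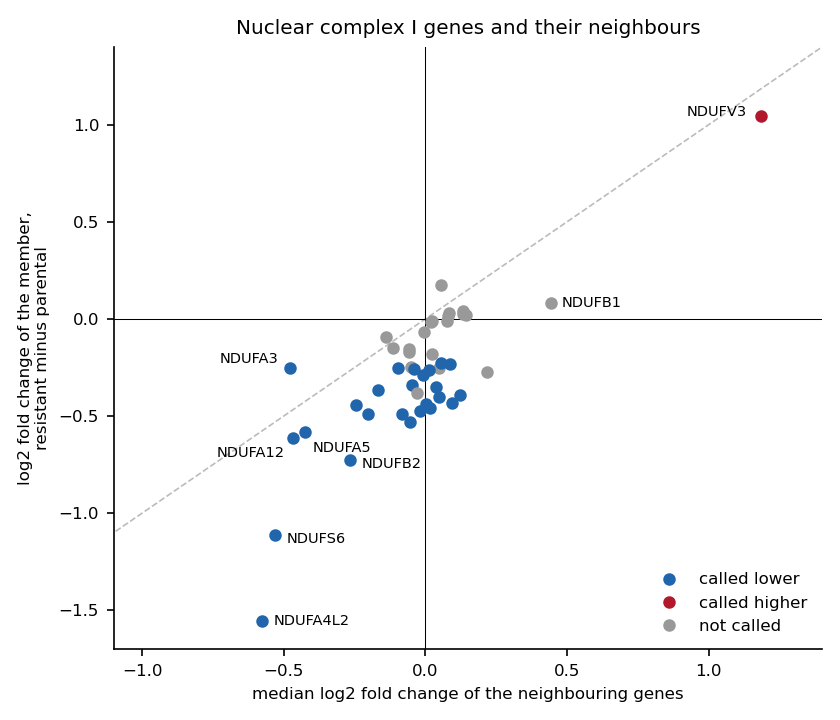
Log2 fold change of nuclear complex I genes (vertical) against the median of their 51 neighbouring genes (horizontal), coloured by the call. The dashed line marks equality: *NDUFV3* and *NDUFA12* lie near it, *NDUFA3* lies above it, and most members called lower lie below it at a neighbour median near 0.

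The N module held both extremes of the subunits. *NDUFS6* (chr5:1801407-1816048), a zinc-binding subunit needed late in assembly of the module, was 2101, 1837 and 1976 in parental and 948, 844 and 943 in resistant libraries. The groups were far apart, with 46.2% of the parental mean left. The log2 fold change was -1.11 (SE 0.08, limma adjusted p = 8.03e-06), its neighbours near the end of chromosome 5 had a median of -0.53, and the difference from them was -0.58 (limma adjusted p = 0.000408).

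*NDUFV3* (chr21:42879644-42913304), a small accessory subunit beside the flavin site, was 849, 939 and 991 in parental and 2017, 1802 and 1915 in resistant libraries, 2.06 times the parental mean. It was the only member called higher, at 1.05 (SE 0.09, limma adjusted p = 1.22e-05). Its neighbours on chromosome 21 had a median of 1.18, and against them *NDUFV3* was at -0.14 (limma adjusted p = 0.232), so its direction turned with this centring.

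*NDUFA12*, an accessory subunit that takes the place of *NDUFAF2* at the end of assembly, was 908, 755 and 893 in parental and 596, 552 and 521 in resistant libraries, -0.61 (SE 0.10, limma adjusted p = 0.00125), beside neighbours at -0.47. *NDUFA2* was also called lower (-0.44), while *NDUFA6* (-0.25, and called without parental library 2 at -0.31), *NDUFA7* (-0.09) and *NDUFS4* (-0.01) were not. *NDUFS4*, whose loss causes Leigh syndrome, was 566, 520 and 575 in parental and 535, 544 and 571 in resistant libraries, so that the ratio of *NDUFS6* to *NDUFS4* went from 3.56 ± 0.14 to 1.66 ± 0.11.

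Of the core subunits of the N module, *NDUFV1* was called lower and *NDUFV2* and *NDUFS1* were not called. *NDUFV1*, which binds NADH and the flavin, was 3425, 3758 and 3711 in parental and 2800, 3282 and 3074 in resistant libraries, -0.25 (SE 0.08, limma adjusted p = 0.0238). *NDUFV2*, its iron-sulphur partner, was 1055, 935 and 942 against 1124, 1083 and 1103, 0.18 (SE 0.08, limma adjusted p = 0.114), and a pseudogene of it carried 6.05% of its value. *NDUFS1*, which holds several of the iron-sulphur clusters, was 3376, 3220 and 3090 against 3685, 2768 and 3199, -0.01 (SE 0.10, limma adjusted p = 0.925). The call of *NDUFV1* was lost without parental library 2 or 3 or resistant library 7 or 9 (-0.23, -0.24, -0.19 and -0.26), and *NDUFV2* was called higher without parental library 1 (0.23). In the whole N module 4 of 10 genes were called lower and 1 higher, against 19.8% and 17.8% of all tested genes. After centring 1 of 10 was lower, *NDUFS6*, against 16.4% of all genes.

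In the Q module all 6 fold changes were negative and 3 were called lower, against 19.8% of all tested genes. *NDUFS8*, a ferredoxin-like subunit, was 2214, 2437 and 2450 in parental and 2045, 1801 and 2103 in resistant libraries, -0.26 (SE 0.08, limma adjusted p = 0.0299). It sat close to the threshold, and the limma adjusted p ran up to 0.11 over the alternatives. Its call was lost without parental library 2 or 3 or resistant library 8 (-0.23, -0.23 and -0.19).

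*NDUFS3* was 2031, 1869 and 2259 in parental and 1909, 1661 and 1887 in resistant libraries, -0.17 (SE 0.09, limma adjusted p = 0.157). *NDUFS7*, which carries the last iron-sulphur cluster before ubiquinone, was 1762, 1977 and 1932 against 1742, 1602 and 1758, -0.15 (SE 0.08, limma adjusted p = 0.143). *NDUFS3* overlaps *PTPMT1* on the same strand, so reads may have been split between them.

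*NDUFA5*, an accessory subunit of the Q module, was 3229, 2514 and 2648 in parental and 2007, 1741 and 1832 in resistant libraries. The groups did not overlap, at -0.58 (SE 0.10, limma adjusted p = 0.00125), and its neighbours were at -0.43, which left -0.16 (limma adjusted p = 0.238). *NDUFA9*, which helps to hold the matrix arm on the membrane arm, was at -0.25 and not called, and was called without parental library 2 (-0.36). Over the 7 nuclear core subunits 3 were called lower and none higher by limma, with a median of -0.17. Over the 30 accessory subunits 19 were lower and 1 higher, with a median of -0.28. The shares over all tested genes were 19.8% lower and 17.8% higher. After centring 2 of the 7 core and 16 of the 30 accessory subunits were lower, against 16.4% of all genes. The difference between core and accessory subunits was not tested.

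The membrane arm held most of the genes called lower, and also most of the nuclear subunits (9 proximal and 11 distal of 37). Most of its transcripts are up to 1000 nucleotides long, a class in which 53.7% of other genes of similar level were called lower. In the proximal part 7 of 9 were lower, against 19.8% of all tested genes, with a median of -0.35. *NDUFA13*, a subunit also known as GRIM-19, was 2600, 2545 and 2708 in parental and 1912, 1724 and 1966 in resistant libraries, -0.49 (SE 0.07, limma adjusted p = 0.000549). The others called were *NDUFS5* (-0.44), *NDUFA1* (-0.43), *NDUFC2* (-0.40), *NDUFC1* (-0.35), *NDUFA11* (-0.34) and *NDUFA3* (-0.25). *NDUFA3* was the least stable of these: its neighbours, on chromosome 19, were at -0.48 and against them it stood at 0.23 (limma adjusted p = 0.0524). Its call was also lost without parental library 2 or 3 or resistant library 7 or 8 (-0.22, -0.23, -0.23 and -0.23). *NDUFA10* and *NDUFA8* were level, at 0.03 and 0.04.

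In the distal part 8 of 11 were lower, against 19.8% of all tested genes, with a median of -0.27. *NDUFB2* was 2034, 1980 and 2226 in parental and 1348, 1119 and 1304 in resistant libraries, 60.4% of the parental mean. It followed *NDUFS6* as the next largest fall of a nuclear subunit, at -0.73 (SE 0.09, limma adjusted p = 0.000164), with neighbours at -0.27. It shares 5485 bases with *ADCK2* on the same strand. *NDUFB7* was 1401, 1542 and 1679 against 1092, 1059 and 1137, -0.49 (SE 0.09, limma adjusted p = 0.00145), with no overlap.

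The other distal genes called lower were *NDUFB9* (-0.39), *NDUFB10* (-0.37), *NDUFB11* (-0.29), *NDUFB8* (-0.27), *NDUFB4* (-0.23) and *NDUFB6* (-0.23). The call of *NDUFB6* was lost without parental library 3 or resistant library 7 or 8 (-0.20, -0.21 and -0.23), and that of *NDUFB8* without parental library 3 (-0.25). *NDUFB3* (-0.15), *NDUFB5* (0.02) and *NDUFB1* (0.08) were not called, and *NDUFB1* stood at -0.36 against its neighbours on chromosome 14 (limma adjusted p = 0.02). *NDUFAB1*, the acyl carrier protein that sits in the complex at a pair of places, was 2382, 2304 and 2587 in parental and 2323, 1965 and 2140 in resistant libraries, -0.18 (SE 0.08, limma adjusted p = 0.107).

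Per kilobase of canonical transcript, the parental level of the nuclear subunits ran from 162 for *NDUFV3* to 10973 for *NDUFS5*. The ND genes ran from 12552 for *MT-ND4L* to 47800 for *MT-ND4*, so every ND gene stood above every nuclear subunit on this scale. Summed, the ND values were 1.53, 2.59 and 2.60 times the nuclear subunit values in parental and 2.23, 1.61 and 2.54 times in resistant libraries. The means of 2.24 ± 0.61 and 2.12 ± 0.47 (SD, n = 3) differed by less than the spread within either group. Without libraries 1 and 8 the ratio of the resistant to the parental mean was 0.919, and with all libraries 0.950. Leaving out single libraries moved it from 0.820 (without parental library 1) to 1.07 (without resistant library 8), and it was above 1 also without parental library 2 (1.03) or 3 (1.03). The summed nuclear subunit values did not overlap between the groups, whereas the summed ND values did. The ND share of the mitochondrial messages did not overlap. None of these group values was tested.

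Of the 8 assembly factors 2 were called lower, *NDUFAF3* and *NDUFAF8*, near the background of 19.8%, and the median was -0.17. *NDUFAF3*, which acts with *NDUFAF4* on the early Q module, was 1468, 1606 and 1601 in parental and 1155, 1030 and 1053 in resistant libraries, -0.53 (SE 0.08, limma adjusted p = 0.000591). *NDUFAF8*, the partner of *NDUFAF5*, was 1267, 1336 and 1482 against 1030, 885 and 1024, -0.48 (SE 0.09, limma adjusted p = 0.00287). Neither group pair overlapped, and both genes stayed lower against their neighbours.

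Their partners were not called. *NDUFAF5*, which hydroxylates an arginine of NDUFS7, was 517, 494 and 529 in parental and 398, 320 and 479 in resistant libraries, -0.38 (SE 0.14, limma adjusted p = 0.0587). *NDUFAF4* was 689, 451 and 478 against 543, 512 and 522, -0.01 (SE 0.15, limma adjusted p = 0.960). The groups of *NDUFAF5* did not overlap, and it was called without resistant library 9, at -0.52.

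*NDUFAF1*, a part of the complex that builds the membrane arm, was 373, 338 and 353 in parental and 315, 267 and 298 in resistant libraries, -0.28 (SE 0.12, limma adjusted p = 0.0950), and was called after centring at -0.49 (limma adjusted p = 0.0152). *NDUFAF2*, the placeholder for *NDUFA12*, was 278, 205 and 250 against 241, 234 and 265, 0.02 (SE 0.15, limma adjusted p = 0.920). *NDUFAF6* was 598, 632 and 527 against 620, 536 and 632, 0.03 (SE 0.11, limma adjusted p = 0.878). *NDUFAF7*, a methyltransferase, was 138, 222 and 233 against 176, 218 and 161, -0.07 (SE 0.22, limma adjusted p = 0.832), and these last overlapped widely.

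*NDUFA4* and *NDUFA4L2* carry complex I names, but *NDUFA4* is now counted with complex IV, and *NDUFA4L2* is known as a hypoxia-induced gene that lowers complex I activity. *NDUFA4L2* (chr12:57234903-57240715) was 1668, 3602 and 2145 in parental and 664, 1001 and 764 in resistant libraries. The parental libraries varied widely, yet none came down to the resistant ones. Its log2 fold change of -1.55 (SE 0.24, limma adjusted p = 0.000722) was the largest fall of any member, with 32.8% of the parental mean left, and it was -0.98 against neighbours at -0.58. *NDUFA4* was 4280, 5023 and 5197 in parental and 3562, 3170 and 3794 in resistant libraries, -0.46 (SE 0.09, limma adjusted p = 0.00297). *NDUFC2-KCTD14* was 14.7, 4.34 and 22.2 against 5.75, 0 and 0, had a mean under 10 and was not tested.

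Among 10 other complex I assembly factors, 3 were called lower and 2 higher. The shares over all tested genes were 19.8% lower and 17.8% higher. *ECSIT* (-0.65, SE 0.08, limma adjusted p = 0.000148), *COA1* (-0.49) and *ACAD9* (-0.21) were lower, and *TMEM126B* (-0.02) and *TIMMDC1* (-0.08), which like them belong to the complex that builds the membrane arm, were not called. *NUBPL* (0.77), which delivers iron-sulphur clusters, and *FOXRED1* (0.26) were higher. Of 5 genes of protease complexes that act on complex I, *LONP1* (-0.37) and *CLPP* (-0.26) were lower, *CLPX* (0.52) and *AFG3L2* (0.27) higher, and *YME1L1* at 0.04 was not called.

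Counts for the other respiratory complexes ran from 8 of 11 genes lower in complex IV to 1 of 4 in complex II. In the same libraries, 19.8% of all tested genes were called lower and 17.8% higher. For complex IV 8 of 11 nuclear subunits were lower and none higher by limma (median -0.39), led by *COX6A1* (-1.08), *COX5B* (-0.70) and *COX8A* (-0.47). For ATP synthase 8 of 17 were lower and 1 higher (median -0.22), with *ATP5MC2* (-0.95) and *ATP5MF* (-0.87) lower and *ATP5PO* (0.91), which like *NDUFV3* lies on chromosome 21, higher. For complex III 4 of 9 were lower (median -0.07), among them *UQCR11* (-0.59), *UQCRH* (-0.44) and *CYC1* (-0.43). Complex II, which has no mitochondrial subunit, had *SDHA* lower (-0.61, with neighbours at -0.56) and *SDHB* (-0.11), *SDHC* (0.17) and *SDHD* (0.18) not called, nor was any of its assembly factors *SDHAF1* (-0.21), *SDHAF2* (-0.08), *SDHAF3* (-0.29) and *SDHAF4* (0.28). The difference between complex I and the other complexes was not tested.

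Genes that serve mitochondrial transcription and message stability were mostly level, with 2 of 16 lower, *PNPT1* (-0.32), of the RNA degradosome, and *TFAM* (-0.21), which packs and transcribes the mitochondrial genome. *FASTKD5* (-0.25, limma adjusted p = 0.0762), which processes mitochondrial messages that no transfer RNA flanks, came next by p and was not called. Of 10 genes of mitochondrial DNA replication 4 were lower, among them *POLG* (-0.63), *SSBP1* (-0.52) and *DGUOK* (-0.37). Among 10 regulators of nuclear mitochondrial genes 3 were lower and 4 higher. Beside all these lists, the shares over all tested genes were 19.8% lower and 17.8% higher. *ESRRA* (-0.49), *NRF1* (-0.47) and *GABPB1* (-0.40) were lower, *PPARGC1B* (0.79), *HIF1A* (0.44), *EPAS1* (1.21) and *YY1* (0.25) were higher, and *GABPA* (0.15) was not called. Against their neighbouring genes *HIF1A* (0.01, limma adjusted p = 0.899), *YY1* (-0.07, 0.608) and *NRF1* (-0.20, 0.0958) were not called. *GABPA*, on chromosome 21, was lower on that scale (-0.61, limma adjusted p = 0.00187). *ESRRA*, *GABPB1*, *PPARGC1B* and *EPAS1* kept their direction and call.

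Promoters of the nuclear members were searched because *NRF1*, *GABPA* of the ETS family and *YY1* are known to act on respiratory chain genes. RefSeq windows of 250 bases before to 50 after the start (GRCh38.p14) were found for 40 of the 48 nuclear members. On either strand, the NRF1 core GCGCANGCG was in 27.5% of these genes and in 9.02% of all 27305 genes with a window. The ETS core CCGGAAG was in 17.5% and 12.2%, the YY1 core ATGGCGG in 42.5% and 6.66%, and TATAAA in 7.5% and 13.99%. The YY1 core holds ATG and can coincide with a start codon.

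The NRF1 core was in 30% of 20 members called lower and 27.8% of 18 not called, and the YY1 core in 35% and 50%. The windows of the nuclear subunits with the largest fall, the one rise and the next largest fall are printed to show the range, 5′ to 3′ on the plus strand and with matches in capitals. *NDUFS6* (chr5:1801157-1801456) holds an NRF1 core and a YY1 core, *NDUFV3* (chr21:42893059-42893358) the YY1 core in reverse, and *NDUFB2* (chr7:140696458-140696757) none of the 4. The windows follow RefSeq starts, which for *NDUFV3* and *NDUFB2* lie inside the Gencode gene. A match of letters is a description and not a binding site.
NDUFS6: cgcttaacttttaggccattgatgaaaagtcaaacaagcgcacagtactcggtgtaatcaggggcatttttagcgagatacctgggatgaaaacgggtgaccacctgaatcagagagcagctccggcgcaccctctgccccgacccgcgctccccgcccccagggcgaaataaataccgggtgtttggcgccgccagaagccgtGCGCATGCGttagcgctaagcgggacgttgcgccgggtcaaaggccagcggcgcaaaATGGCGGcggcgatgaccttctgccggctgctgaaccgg
NDUFV3: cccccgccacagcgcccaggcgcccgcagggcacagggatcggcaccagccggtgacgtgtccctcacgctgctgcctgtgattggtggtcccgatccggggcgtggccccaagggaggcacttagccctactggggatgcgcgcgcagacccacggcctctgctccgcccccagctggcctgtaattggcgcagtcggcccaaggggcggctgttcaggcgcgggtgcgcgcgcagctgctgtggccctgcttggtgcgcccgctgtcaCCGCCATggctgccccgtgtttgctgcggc
NDUFB2: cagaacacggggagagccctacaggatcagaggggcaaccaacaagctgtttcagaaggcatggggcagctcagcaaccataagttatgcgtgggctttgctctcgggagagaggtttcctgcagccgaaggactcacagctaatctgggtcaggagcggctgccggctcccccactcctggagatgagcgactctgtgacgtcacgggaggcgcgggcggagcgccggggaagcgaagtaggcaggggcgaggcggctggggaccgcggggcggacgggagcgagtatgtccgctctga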

How the data were processed

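Parental and resistant H526 cells were grouped by the sample titles. The authors trimmed paired-end reads with Trimmomatic 0.38, aligned and quantified them with RSEM 1.3.1 on the GRCh38 primary assembly with Gencode v43, and normalized the gene counts with DESeq2 (1.30.0 in the submitters' processing notes). The deposited table holds this normalized signal for 62757 rows and 6 libraries, and libraries were not pooled. Strand settings are not given in the sources used here. Second copies of 47 pseudoautosomal genes, equal to the first, were left out, and 62639 of 62710 rows took symbols and positions from Gencode v44.

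Low values were whole multiples of 1 read (tolerance 0.02 of the step) for 30.1 to 56.8%, so the read numbers could not be restored and the count model of the study's methods was left out. limma 3.58.1 (R 4.3.3) was fitted to log2(value + 1) of genes with a mean of at least 10 (trended eBayes, group as the only term, Benjamini-Hochberg adjustment over 16347 genes). The script was tested on simulated data. The value of 3 reads covers counting error only, and standard errors the spread between libraries. Local centring subtracted, in each library, the median deviation of the 51 neighbouring genes. Mitochondrial messages were also tested relative to the sum of the other 12 of the 13. Members are named except where an item is not reported here. Values per library are given for the ND genes, nuclear core subunits, assembly factors, *NDUFA4*, *NDUFA4L2* and the 8 largest called changes in each direction, and up to 3 genes by p from each other list, or all of a list of 8 or fewer. *EPAS1*, *NRF1*, *GABPA*, *GABPB1*, *YY1*, *ACAD9*, *FOXRED1*, *TMEM126B*, *TIMMDC1* and *NDUFS4* were added after their values were seen. The members and lists were chosen with earlier results of these data known. Alternatives were pseudocounts of 0.1 and 10, no filter and a minimum mean of 50, quantile normalization, equal sums, no trend, local centring and leaving out libraries.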

Additional observations from a re-analysis of the deposited data

How the results depend on the processing

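The 22 nuclear subunits called lower became 16 to 22 over 15 alternatives, and assembly factors 2 to 3. The 1 nuclear subunit called higher became 2 under quantile normalization, 2 with each library rescaled to equal sums, 0 after local median centring, and 1 to 2 when single libraries were left out. The 1 ND gene called lower became 0 without the trend, 5 with parental library 1 and resistant library 8 both left out, 2 relative to the other mitochondrial messages (the last pair chosen after seeing the data), and 0 to 3 when single libraries were left out (0 without parental library 3, 3 without parental library 1, 2 without resistant library 9). Under local median centring *NDUFA3* turned to 0.23, *NDUFB1* to -0.36 and *NDUFV3* to -0.14. Of 810 values of single members, 699 kept direction and side of the threshold, 48 lost a call, 16 gained one, 44 changed sign without a call, and 3 are those named; 13 of the 28 called members lost their call under no alternative. Equal sums moved the median of all genes from -0.00 to 0.06. The study describes its parental and resistant cells as matched. The labels number the parental libraries 1 to 3 and the resistant ones 7 to 9 and give no pairs. No paired analysis was therefore possible. Every tested member lay far above the value of 3 reads in every library, so depth set no limit on them.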
